A study of Mus musculus with 9 samples.

Results

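The transcripts of 10 chemokine ligands were followed in the hippocampus of lupus-prone mice. They were Ccl2, Ccl3, Ccl4, Ccl5, Ccl7, Ccl8, Ccl12, Cxcl9, Cxcl10 and Cxcl13, chosen by name from the deposited matrix of raw read counts, in which they are 10 of 47643 genes. Hippocampal RNA was sequenced from 3 groups of mice at 6 weeks of age, with 3 libraries in each group. MRL/mpj mice were untreated wild-type controls. MRL/lpr mice were untreated and carry the lpr mutation of Fas on the MRL background, and develop lupus spontaneously. MRL/lpr+MSC mice carry the same mutation and were given mesenchymal stem cells, with the source, dose and route of the cells not given in the sources used here. The lpr mutation is present in every cell of the animal. The labels name C57BL/6 as the strain of all 9 libraries, whereas the study's text gives MRL/MpJ and MRL/MpJ-Faslpr, which are the names used here. Per the study's methods, mice were perfused with buffered saline before dissection.

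The labels of the MRL/lpr and MRL/lpr+MSC libraries carry a doubt that bears on every direction given below. In a spreadsheet published with the study, the 3 columns headed MRL/mpj held the counts of MRL/mpj libraries 1 to 3, each times a fixed factor. The 3 columns headed MRL/lpr held in the same way the counts of those libraries that the labels call MRL/lpr+MSC 1 to 3. Over the first 1999 genes of that spreadsheet, this match held for 100% of the genes with at least 5 counts, within a tolerance of 1%, and for 0.156% to 5.73% of the genes against any other library. The labels were kept here. If the 2 sets of labels had been exchanged, the comparisons of MRL/lpr and of MRL/lpr+MSC with MRL/mpj would change places, and the comparison between the lpr groups would change sign. Fas itself did not settle this. Its counts were 40, 43 and 30 in MRL/mpj, 65, 31 and 42 in MRL/lpr and 19, 24 and 41 in MRL/lpr+MSC, and the 3 groups overlapped. Xist was counted in all 9 libraries and the Y-linked Ddx3y, Eif2s3y and Uty in none, so sex did not separate the groups. Of the ligands followed here, the study names Ccl3, Ccl5, Ccl8, Cxcl9, Cxcl10 and Cxcl13 in pathways enriched between MRL/mpj and MRL/lpr mice. As labelled, each of these was higher in every MRL/lpr library than in every MRL/mpj library. In MRL/lpr+MSC this held for Ccl8, Cxcl10 and Cxcl13, and Ccl3, Ccl5 and Cxcl9 overlapped with MRL/mpj. Which libraries gave that list is not stated in the sources used here, so it was not used to choose the labels.

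The total count was 20991419, 24114666 and 19475804 in the MRL/mpj libraries, 26912031, 22858589 and 22438063 in the MRL/lpr libraries and 20014975, 21213137 and 21914100 in the MRL/lpr+MSC libraries. A count of 0 in one of these libraries allows up to 3 counts, or 0.105 to 0.163 CPM, which are counts scaled to library size. Such limits, and the counting intervals given below, take in counting error alone. Libraries of a group always differed by more than sampling noise, the smallest chi-square being 10.7 per gene. The labels do not say whether the libraries of a group came from separate litters or days, so the tests measure the spread between these libraries.

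Chemokines are small secreted proteins that direct the migration of leukocytes through receptors coupled to G proteins. CC and CXC chemokines are named for the spacing of their first cysteines. Cxcl9 and Cxcl10 bind Cxcr3 on activated T cells and are induced by interferon gamma, and Cxcl10 also by type I interferon. Cxcl13 binds Cxcr5 and draws B cells into lymphoid follicles. Ccl3 and Ccl5 bind Ccr1, and Ccl4 is a close relative of Ccl3. Ccl2, Ccl7 and Ccl12 bind Ccr2 and recruit monocytes, and Ccl8, a relative of theirs, is an agonist of Ccr8 in the mouse. In the healthy brain, the transcripts of most of these ligands are scarce.

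On GRCm38, the 10 genes lie in a few clusters. Ccl2 (chr11:82035571-82037453), Ccl7 (chr11:82045712-82047525), Ccl12 (chr11:82101845-82103400) and Ccl8 (chr11:82115185-82116799) are neighbours on the plus strand of chromosome 11. Ccl5 (chr11:83525778-83530518, minus strand), Ccl3 (chr11:83647844-83649355, minus strand) and Ccl4 (chr11:83662584-83664683, plus strand) form another group on the same chromosome. Cxcl9 (chr5:92321347-92328079), Cxcl10 (chr5:92346638-92348889), both on the minus strand, and Cxcl13 (chr5:95956951-95961068, plus strand) are on chromosome 5. All are protein-coding. The coding sequences of these paralogs were most alike for Ccl3 and Ccl4, with 66.7% identical bases, and no pair shared an unbroken stretch of more than 17 bases. Cxcl10 shares 133 of its 2252 exonic bases with Art3 on the other strand, and whether the reads were counted by strand is not given in the sources used here. The counts of Art3 were 58, 63 and 50 in MRL/mpj, 78, 50 and 37 in MRL/lpr and 31, 69 and 59 in MRL/lpr+MSC.

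Promoter windows of RefSeq on GRCm38.p6 were at hand for 6 of the 10 ligands. The 250 bases before the RefSeq start of the gene are printed, 5′ to 3′, for the 4 ligands with the highest mean CPM in MRL/lpr mice and for Ccl12, the gene next to Ccl8, because these are the members whose levels are set against each other below. Capitals mark matches to a motif on either strand.
Cxcl9, chr5:92328080-92328329, minus strand: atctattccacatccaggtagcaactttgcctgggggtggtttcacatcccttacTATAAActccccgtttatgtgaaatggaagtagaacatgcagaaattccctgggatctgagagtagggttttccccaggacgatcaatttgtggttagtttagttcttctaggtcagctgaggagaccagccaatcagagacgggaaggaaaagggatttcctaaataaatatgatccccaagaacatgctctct
Cxcl10, chr5:92348890-92349139, minus strand: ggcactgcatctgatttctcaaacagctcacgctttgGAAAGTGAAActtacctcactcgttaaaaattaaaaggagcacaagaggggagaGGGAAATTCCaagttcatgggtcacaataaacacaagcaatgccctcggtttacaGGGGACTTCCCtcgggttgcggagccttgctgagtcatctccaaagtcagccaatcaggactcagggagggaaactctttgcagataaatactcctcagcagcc
Cxcl13, chr5:95956689-95956938, plus strand: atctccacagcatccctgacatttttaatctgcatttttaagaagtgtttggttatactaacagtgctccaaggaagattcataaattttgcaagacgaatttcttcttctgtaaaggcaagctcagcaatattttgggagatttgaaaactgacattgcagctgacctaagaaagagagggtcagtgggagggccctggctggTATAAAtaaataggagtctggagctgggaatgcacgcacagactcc
Ccl8, chr11:82114935-82115184, plus strand: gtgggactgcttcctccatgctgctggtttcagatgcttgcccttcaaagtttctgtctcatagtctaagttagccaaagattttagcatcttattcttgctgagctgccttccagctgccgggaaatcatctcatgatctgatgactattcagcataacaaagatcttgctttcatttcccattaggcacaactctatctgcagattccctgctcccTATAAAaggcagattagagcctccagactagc
Ccl12, chr11:82101595-82101844, plus strand: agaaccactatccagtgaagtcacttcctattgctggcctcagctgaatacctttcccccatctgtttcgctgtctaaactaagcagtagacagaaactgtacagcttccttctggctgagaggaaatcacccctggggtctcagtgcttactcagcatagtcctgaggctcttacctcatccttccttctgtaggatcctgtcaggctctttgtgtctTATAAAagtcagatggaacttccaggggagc

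In these windows, 4 motifs were searched on both strands. The interferon-stimulated response element was written GAAANNGAAA, the gamma-activated sequence TTCNNNGAA and the TATA box TATAAA, and the kappaB consensus, whose letters were set after a narrower form had been searched, is given by name. Among 32851 promoter windows of the same 250 bases, 2.98% held the first, 7.02% the second, 12.4% the TATA box and 7.25% the kappaB consensus. Cxcl10 was the member with a match to the response element, GAAAGTGAAA at 213 to 204 bases before the start. It also held matches to the kappaB consensus, GGGAAATTCC at 159 to 150 and GGGGACTTCC at 104 to 95, the latter overlapping another match shifted by 1 base. Ccl8 and Ccl12 had the TATA box at 32 to 27 and 31 to 26 bases before the start, Cxcl13 at 46 to 41 and Cxcl9 at 195 to 190. The window of Ccl3 held none of these motifs, and no window of the 6 held the gamma-activated sequence as written. These are matches of letters and not sites of binding.

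In MRL/mpj hippocampus, the ligands were close to absent. The counts of all 10 together were 29, 22 and 19 in the 3 libraries, or 1.45, 0.946 and 1.03 CPM, and Ccl12 alone made up 58.6%, 54.5% and 31.6% of them. In MRL/lpr, the sums were 1466, 925 and 188 counts, or 51.3, 39.9 and 7.95 CPM. Each of these was above every MRL/mpj library, and the lowest of them was library 3. The sums in MRL/lpr+MSC were 18, 85 and 126 counts, or 0.934, 3.95 and 5.57 CPM. Library 1 of this group was at the level of the MRL/mpj libraries. Within MRL/lpr, library 1 was the highest for 8 of the 10 ligands and library 3 the lowest for 9. Within MRL/lpr+MSC, library 1 was the lowest for 9, and level with library 2 at 0 for Ccl4. The RNA came from whole tissue, in which more cells of a type and more RNA per cell cannot be told apart.

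**Figure D1:**
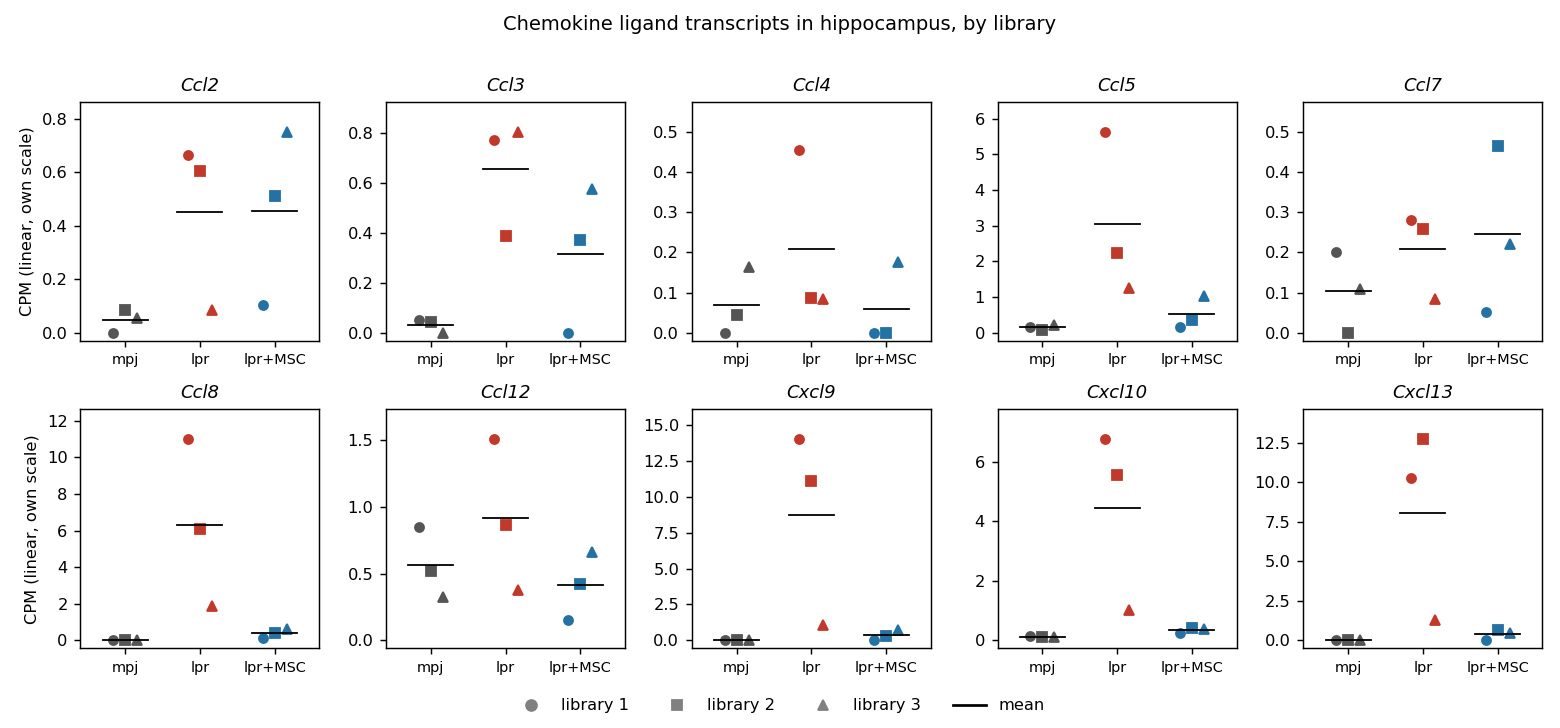
Level of each of the 10 ligands in the 9 libraries, in CPM on a linear scale that differs between panels, with 1 point per library and the group mean as a line. For Cxcl9, Cxcl10 and Cxcl13, libraries 1 and 2 of MRL/lpr lie far above library 3, and all 3 lie above the libraries of both other groups.

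Of the ligands of Cxcr3, Cxcl9 had the most counts in MRL/lpr. Cxcl9 was counted 0, 0 and 1 times in MRL/mpj, 400, 257 and 25 times in MRL/lpr and 0, 7 and 16 times in MRL/lpr+MSC. These counts correspond to 8.71 ± 6.79 CPM in MRL/lpr, 0.344 ± 0.354 in MRL/lpr+MSC and 0.0182 ± 0.0314 in MRL/mpj (SD, n = 3 each). Every MRL/lpr library was above every other library, although library 3 was closer to the MRL/lpr+MSC libraries than to its own group. Cxcl10 was counted 3, 3 and 2 times in MRL/mpj, 193, 129 and 24 times in MRL/lpr and 5, 9 and 9 times in MRL/lpr+MSC. Its mean was 0.129 ± 0.0205 CPM in MRL/mpj, 0.359 ± 0.0864 in MRL/lpr+MSC and 4.44 ± 3.03 in MRL/lpr (SD, n = 3 each), and the 3 groups did not overlap.

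Cxcl13, the attractant of B cells, had the same shape. Its counts were 1, 1 and 0 in MRL/mpj, 293, 295 and 30 in MRL/lpr and 1, 14 and 10 in MRL/lpr+MSC. The means were 0.0310 ± 0.0271, 8.08 ± 6.03 and 0.382 ± 0.304 CPM (SD, n = 3 each). The MRL/lpr libraries were again above all others, and library 1 of MRL/lpr+MSC had 1 count, as many as libraries 1 and 2 of MRL/mpj, and was above them only by its smaller size.

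Of Ccl3, Ccl4 and Ccl5, the last had the most counts in MRL/lpr. Ccl5 was counted 3, 2 and 4 times in MRL/mpj, 161, 52 and 30 times in MRL/lpr and 3, 8 and 23 times in MRL/lpr+MSC. The MRL/lpr libraries, at 5.63, 2.24 and 1.27 CPM, were above all others, and library 3 of MRL/lpr+MSC came nearest at 1.02 CPM. Ccl3 was counted 1, 1 and 0 times in MRL/mpj, 22, 9 and 19 times in MRL/lpr and 0, 8 and 13 times in MRL/lpr+MSC. Ccl3 was the one ligand for which library 3 was the highest MRL/lpr library, at 0.804 CPM. Ccl4 stayed within a few counts in 8 of the 9 libraries, with 0, 1 and 3 in MRL/mpj, 13, 2 and 2 in MRL/lpr and 0, 0 and 4 in MRL/lpr+MSC.

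Ccl8 had the most counts in MRL/lpr of the ligands on chromosome 11. It was counted 0 times in all 3 MRL/mpj libraries, 314, 141 and 45 times in MRL/lpr and 3, 9 and 14 times in MRL/lpr+MSC, and the 3 groups did not overlap. Its neighbour Ccl12 was the one ligand with more than a few counts in the controls, with 17, 12 and 6 in MRL/mpj, 43, 20 and 9 in MRL/lpr and 3, 9 and 15 in MRL/lpr+MSC, and these ranges overlapped. Ccl2 was counted 0, 2 and 1 times in MRL/mpj, 19, 14 and 2 times in MRL/lpr and 2, 11 and 17 times in MRL/lpr+MSC. Its level in MRL/lpr+MSC, 0.456 ± 0.328 CPM, was close to that in MRL/lpr, 0.451 ± 0.319 CPM (SD, n = 3 each). Ccl7 had at most 10 counts in any library, with 4, 0 and 2 in MRL/mpj, 8, 6 and 2 in MRL/lpr and 1, 10 and 5 in MRL/lpr+MSC.

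Levels can be compared between genes only per length, for which the deposited FPKM values were used. In MRL/lpr, the order of mean FPKM was Ccl8 with 12.3 ± 8.81, Cxcl13 with 6.96 ± 5.18, Ccl5 with 3.15 ± 2.36, Cxcl9 with 2.86 ± 2.23, Cxcl10 with 1.95 ± 1.33, Ccl12 with 1.69 ± 1.04 and Ccl3 with 0.848 ± 0.301 FPKM (SD, n = 3 each). Ccl2, Ccl4 and Ccl7 followed at 0.393, 0.313 and 0.257 FPKM. Of the 9 pairs of neighbours in this order, 1 differed by more than the larger of its 2 SDs, Ccl3 and Ccl2. In MRL/mpj, Ccl12 came first at 1.05 ± 0.489 FPKM (SD, n = 3), and it differed from the next, Ccl5 at 0.158 FPKM, by more than the spread. The other 8 ligands were at or below 0.129 FPKM and Ccl8 was listed at 0. In MRL/lpr+MSC, the means ran from 0.776 FPKM for Ccl8 to 0.0893 for Ccl4, and no pair of neighbours differed by more than its spread.

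**Figure D2:**
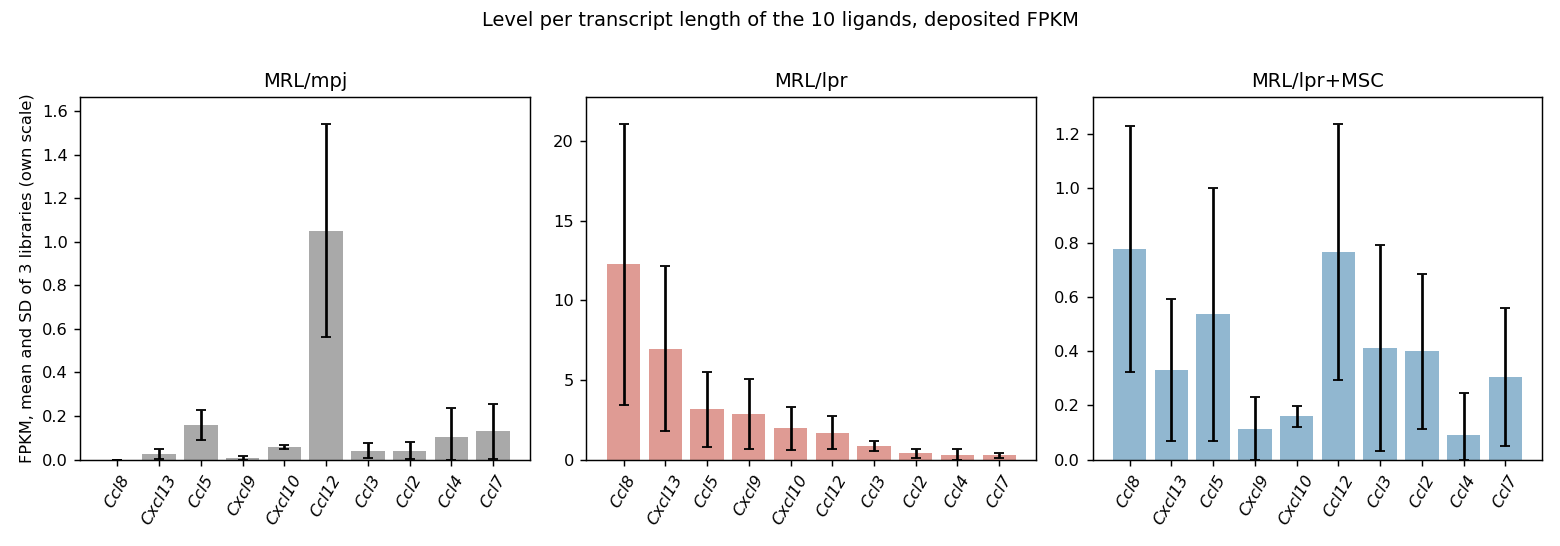
Mean deposited FPKM of the 10 ligands in each group as bars, with the SD of 3 libraries as error bars cut at 0, and with a linear scale that starts at 0 and differs between panels. Ccl12 leads in MRL/mpj at 1.05 FPKM and Ccl8 leads in MRL/lpr at 12.3 FPKM.

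MRL/lpr mice were compared with MRL/mpj mice to ask how the hippocampal transcriptome of lupus-prone mice differs from that of controls at this age. Of the 29355 genes with a count, 16697 had enough counts for limma voom. Differential expression was taken as a change of at least 1.5-fold with a Benjamini-Hochberg adjusted p, over every gene tested, under 0.05. By this rule 967 genes differed and 569 of them were higher in MRL/lpr, or 3.41% of those tested. The 967 became 165 without MRL/mpj library 3 and 1695 without MRL/lpr library 2. Of the ligands, 6 passed the filter, 5 through their counts in MRL/lpr and Ccl12 through libraries of both groups. Of these 6, 1 ligand, Ccl8, was differentially expressed. Ccl8 rose by 7.75 ± 1.46 on the log2 scale (SE, limma voom, adjusted p = 0.0289), which depends on the prior count because all controls were at 0. Set against 3 counts in each control library, it was at least 42.9-fold higher, or 27.1-fold without MRL/lpr library 1. The call rests on having all 3 control libraries. Without MRL/mpj library 1, 2 or 3, the adjusted p of Ccl8 in limma voom was 0.149, 0.148 or 0.160. Its log2 fold change ran from 7.13 without MRL/lpr library 1 to 8.43 without MRL/lpr library 3.

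The other 5 tested ligands did not pass the threshold. Their log2 fold changes were 7.36 ± 2.38 for Cxcl9 (SE, limma voom, adjusted p = 0.0969), 6.81 ± 2.10 for Cxcl13 (adjusted p = 0.0876), 4.52 ± 1.42 for Cxcl10 (adjusted p = 0.0923) and 4.02 ± 0.983 for Ccl5 (adjusted p = 0.0528). These sizes came with wide intervals, of 1.66 to 13.1 for Cxcl9 and 1.67 to 6.37 for Ccl5 at the 95% level. For Ccl12, the log2 fold change was 0.60 ± 0.60 (adjusted p = 0.532), and it was 0.11 without MRL/lpr library 1 and 1.10 without library 3. The result depended on MRL/lpr library 3. Without that library, 6 ligands passed by limma voom, with an adjusted p of 0.00256 for Cxcl9, 0.00256 for Cxcl13, 0.00298 for Cxcl10, 0.00546 for Ccl8, 0.0214 for Ccl2 and 0.0242 for Ccl5. In that fit, whose count filter asked for fewer libraries, 7 ligands were tested, and 1135 of 17184 genes were called higher, or 6.6%.

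Without regard to the size of the gap, 6 of the 10 ligands, Ccl3, Ccl5, Ccl8, Cxcl9, Cxcl10 and Cxcl13, were higher in every MRL/lpr library than in every MRL/mpj library, as were 14.2% of the 29355 genes with a count. The other 4 overlapped. With no filter on low counts, all 10 log2 fold changes were positive, and Ccl3 passed at 3.69 ± 0.59 (SE, limma voom, adjusted p = 0.0105). For the ligands below the filter, the ratios of summed counts, each divided by the total count of its group, were 10.4 for Ccl2, 22.4 for Ccl3, 3.80 for Ccl4 and 2.39 for Ccl7. The 95% counting intervals were 3.29 to 53.0, 5.87 to 190, 1.24 to 15.5 and 0.886 to 7.44, and they leave out the spread between mice. The ratio of Ccl4 rested on MRL/lpr library 1, which held 13 of its 17 counts, and was 1.43 without that library, with an interval of 0.266 to 7.65. Its interval also reached below 1 without MRL/mpj library 1 or 2. With 1 library left out, the ratio ran from 7.04 to 19.6 for Ccl2, 15.6 to 30.2 for Ccl3 and 1.49 to 4.83 for Ccl7.

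MRL/lpr+MSC mice were compared with MRL/mpj mice, which served as controls in both comparisons. Of 16196 genes tested, 556 differed and 313 of them were higher, or 1.93%. The 556 became 193 without MRL/mpj library 1 and 1514 without MRL/lpr+MSC library 1. Ccl12 was the one ligand that passed the filter, with a log2 fold change of -0.51 ± 0.57 (SE, limma voom, adjusted p = 0.646), and 0 of the ligands were differentially expressed in this fit. That value was -0.96 without MRL/lpr+MSC library 3 and -0.0018 without MRL/lpr+MSC library 1. Among all genes tested, 3710 had an unadjusted p under 0.05. With no filter on low counts, Ccl8 passed at 3.96 ± 0.63 (SE, limma voom, adjusted p = 0.0120), a size that again depends on the prior count. Its 26 counts over 3 libraries put it at least 2.70-fold above the limit of 3 counts in each control library. Ccl2, Ccl8, Cxcl10 and Cxcl13 were higher in every MRL/lpr+MSC library than in every MRL/mpj library, as were 10.8% of the 28893 genes with a count. For Ccl2, MRL/lpr+MSC library 1 and MRL/mpj library 2 both had 2 counts and differed only by library size. Ccl8 had 3 counts in that MRL/lpr+MSC library, as many as a count of 0 allows. The scaled ratios of summed counts were 10.2 for Ccl2 and 12.8 for Cxcl13, with 95% counting intervals of 3.18 to 52.4 and 3.19 to 111. For Cxcl10 the ratio was 2.94, with an interval of 1.27 to 7.60. With 1 library left out, these ratios ran from 6.79 to 19.2 for Ccl2, 8.47 to 18.0 for Cxcl13 and 2.70 to 3.37 for Cxcl10. The groups overlapped for the others. Of these, Cxcl9 had a ratio of 23.5 against a single control count (interval 3.82 to 969), Ccl3 one of 10.7 (2.63 to 94.5), Ccl5 one of 3.86 (1.81 to 9.16), Ccl7 one of 2.73 (1.01 to 8.51), Ccl4 one of 1.02 (0.191 to 5.49) and Ccl12 one of 0.789 (0.459 to 1.34). Without MRL/lpr+MSC library 3, the ratio was 11.0 for Cxcl9, 6.27 for Ccl3 and 1.91 for Ccl5 (0.721 to 5.23), and without MRL/lpr+MSC library 2 it was 1.54 for Ccl7 (0.412 to 5.76). The ratio of Ccl7 was 5.52 without MRL/mpj library 1. That of Ccl4 was 0 without MRL/lpr+MSC library 3, which held all 4 of its counts in that group, and 2.86 without MRL/mpj library 3.

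MRL/lpr+MSC mice were then compared with untreated MRL/lpr mice, the comparison that bears on the treatment and shares its libraries with the others. Of 16758 genes tested, 0 were differentially expressed by limma voom, and also 0 by limma-trend and with library quality weights, so the share called lower was 0.0%, while 647 genes had an unadjusted p under 0.05. Of the 8 ligands tested, 7 had a negative log2 fold change. Most of the 8 passed the filter through their counts in MRL/lpr, which favours a negative sign, so this count cannot show a fall. With no filter on low counts, 8 of the 10 ligands were negative and 2 positive. Of all genes tested, 49.0% were positive. Of the 10 ligands, 5, namely Ccl5, Ccl8, Cxcl9, Cxcl10 and Cxcl13, were lower in every MRL/lpr+MSC library than in every MRL/lpr library. The same held for 4.78% of the 29293 genes with a count. Their log2 fold changes were -2.61 ± 0.91, -3.79 ± 1.16, -4.87 ± 2.27, -3.21 ± 1.14 and -4.25 ± 1.78 in that order (SE, limma voom, adjusted p = 0.921 for each). The 95% intervals reached from -4.80 to -0.42 for Ccl5, -6.60 to -0.98 for Ccl8 and -10.4 to 0.62 for Cxcl9. Ccl3 and Ccl12 had log2 fold changes of -1.75 ± 1.05 and -1.10 ± 0.70, and Ccl2 one of 0.09 ± 0.97. Without MRL/lpr+MSC library 1, that of Ccl3 was -0.42 and that of Ccl12 -0.61, and without MRL/lpr+MSC library 3, that of Ccl3 was -2.62.

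**Figure D3:**
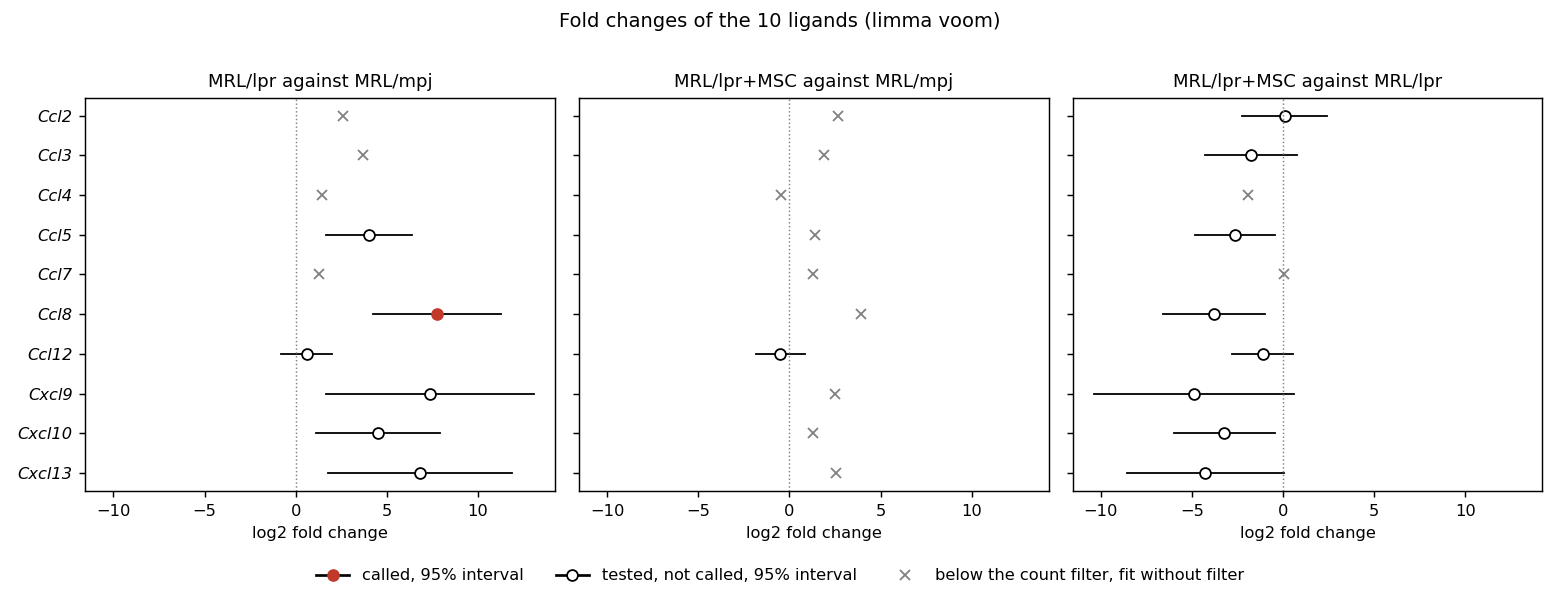
Log2 fold change of the 10 ligands in the 3 comparisons, with circles and 95% intervals from limma voom for tested ligands, a filled circle where the call was made, and crosses for ligands below the count filter, from a fit without filter. Ccl8 at 7.75 in the first panel is the one filled circle. In the third panel, most circles are ligands that passed the filter through their counts in MRL/lpr, which favours values below 0.

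Among the receptors of these ligands, Ccr1, a receptor of Ccl3 and Ccl5 on monocytes, macrophages and T cells, passed the threshold. Its counts were 5, 9 and 1 in MRL/mpj, 65, 40 and 44 in MRL/lpr and 35, 37 and 37 in MRL/lpr+MSC. Ccr1 rose by 3.20 ± 0.53 on the log2 scale in MRL/lpr (SE, limma voom, adjusted p = 0.0191) and by 3.02 ± 0.51 in MRL/lpr+MSC (adjusted p = 0.0236). Its log2 fold change in MRL/lpr+MSC against MRL/lpr was -0.18 ± 0.21, with the groups overlapping. The first call was lost without any single MRL/mpj library (adjusted p = 0.0874, 0.0643 and 0.0661 in limma voom) and without MRL/lpr library 1 (0.0566), and the second without any MRL/mpj library (0.102, 0.0599 and 0.0519) or MRL/lpr+MSC library 2 or 3 (0.0608 and 0.0634).

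In MRL/lpr against MRL/mpj, Ccr2 and Cxcr5 did not pass, and Ccr3, Ccr8 and Cxcr3 were too low to test. Ccr2, the receptor of Ccl2, Ccl7 and Ccl12 and a marker of inflammatory monocytes, was counted 1, 9 and 2 times in MRL/mpj, 164, 104 and 21 times in MRL/lpr and 5, 15 and 15 times in MRL/lpr+MSC, and library 3 was again the lowest of MRL/lpr. Its log2 fold change in MRL/lpr was 4.16 ± 1.37 (SE, limma voom, adjusted p = 0.101). Cxcr3, the receptor of Cxcl9 and Cxcl10, was counted 3, 4 and 0 times in MRL/mpj, 38, 29 and 5 times in MRL/lpr and 0, 3 and 3 times in MRL/lpr+MSC. Cxcr5, the receptor of Cxcl13, had 21, 22 and 16 counts in MRL/mpj, 48, 22 and 41 in MRL/lpr and 22, 20 and 24 in MRL/lpr+MSC. Ccr3 and Ccr8 had at most 4 and 9 counts in any library.

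**Figure D4:**
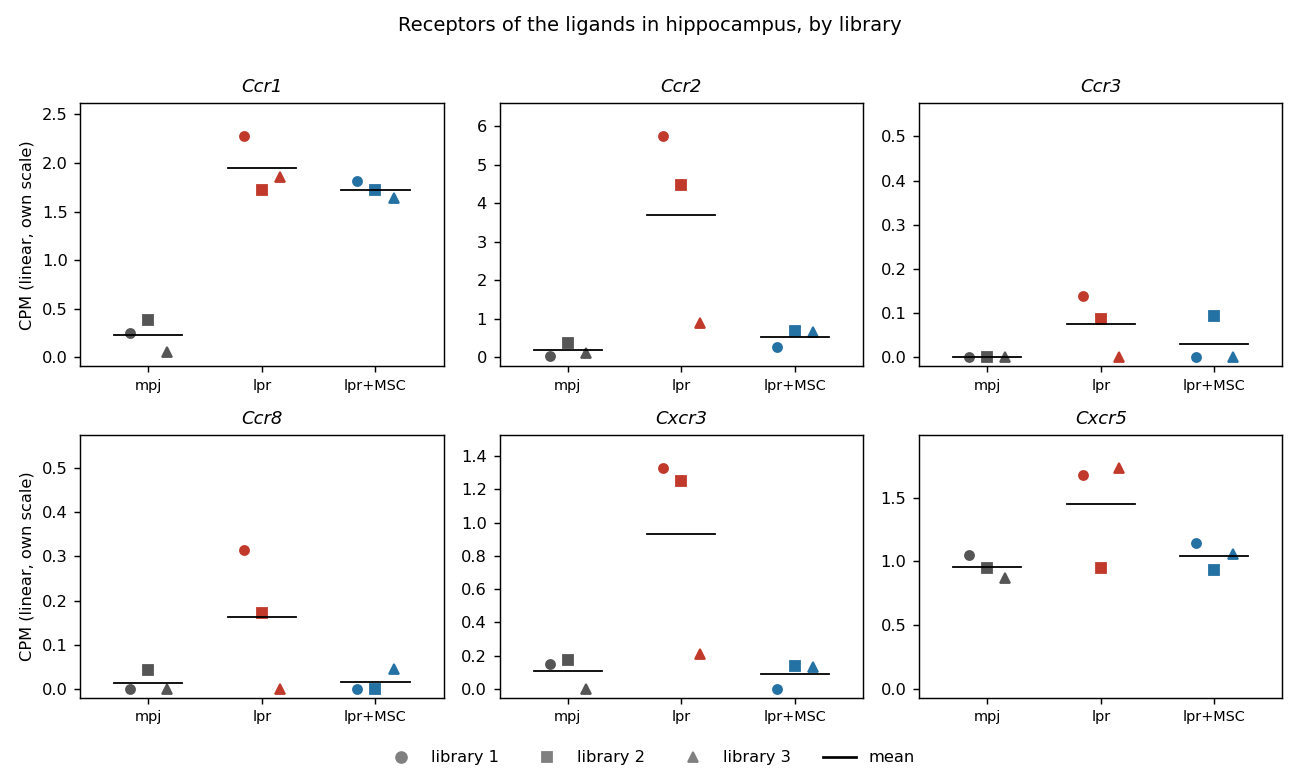
Level of 6 receptors of the ligands in the 9 libraries, in CPM on a linear scale that differs between panels, with 1 point per library and the group mean as a line. Ccr1 is at 1.64 CPM or more in all libraries of MRL/lpr and MRL/lpr+MSC, whereas Ccr2 and Cxcr3 are high in libraries 1 and 2 of MRL/lpr.

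Of 30 other ligands listed, 29 were in the matrix and 16 were tested in MRL/lpr against MRL/mpj, and 0 passed by limma voom, with a median log2 fold change of 0.35. The most abundant was Cx3cl1, the membrane-bound ligand of neurons for microglia, with means of 606 ± 42.0 CPM in the controls and 453 ± 3.53 in MRL/lpr (SD, n = 3 each). The change in Cx3cl1, -0.41 ± 0.07 on the log2 scale (SE, limma voom, adjusted p = 0.0223), was under 1.5-fold, as was that of Cxcl12, at 0.45 ± 0.09 (adjusted p = 0.0293). Cxcl14, Cxcl12 and Ccl27a came next, at means of 118, 105 and 30.8 CPM over the 9 libraries. Cxcl11, the remaining ligand of Cxcr3, was singled out after its values were seen. It was counted 5, 4 and 0 times in MRL/mpj, 141, 53 and 17 times in MRL/lpr and 3, 6 and 9 times in MRL/lpr+MSC, with a log2 fold change in MRL/lpr of 4.23 ± 1.34 (adjusted p = 0.0937). The 5 atypical receptors, which take up chemokines without signalling to migration, had 0 calls in the 3 comparisons. Of 11 receptors of other ligands, 6 were tested in MRL/lpr against MRL/mpj and 0 passed. For Cx3cr1, the most abundant, the change was -0.46 ± 0.10 on the log2 scale (limma voom, adjusted p = 0.0380), also under 1.5-fold. In MRL/lpr+MSC against MRL/lpr, 0 genes of these lists passed, as 0 genes passed at all.

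Of the cytokines known to induce such ligands, Il4, known from T helper cells, was the most abundant in every library, and Ifng, Ifnb1 and Tnf were scarce. The control libraries held Il4 at 11.6, 11.8 and 9.81 CPM, although 4, 4 and 5 of 8 T cell markers were at 0 there. Untreated lpr mice had 11.0, 11.2 and 15.8 CPM, lowest in library 1, where the summed T cell markers were highest. With stem cells given, the values were 16.3, 14.4 and 15.9 CPM. The cell source of the Il4 reads was not tested. Ifng, the inducer of Cxcl9, was counted 0 times in the MRL/mpj libraries, 14, 9 and 4 times in MRL/lpr and 0, 1 and 0 times in MRL/lpr+MSC, and Ifnb1 0 times in all 9. Tnf was counted 0, 1 and 2 times in MRL/mpj, 9, 6 and 4 times in MRL/lpr and 1, 5 and 1 times in MRL/lpr+MSC. Of 11 such cytokines, 4 were tested, and Lta fell by 1.85 ± 0.40 on the log2 scale in MRL/lpr+MSC against MRL/mpj (SE, limma voom, adjusted p = 0.0469). Lta is a lymphotoxin, and this call was lost without any one of the 6 libraries, with an adjusted p of 0.0562 to 0.159. In MRL/lpr against MRL/mpj none passed, and the log2 fold change of Ltb, a lymphotoxin that lymphocytes make, was 3.09 ± 0.85 (adjusted p = 0.0696).

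Of 21 genes of interferon and NF-kB signalling, all tested, 2 rose and 1 fell in MRL/lpr against MRL/mpj. Irf9, a part of the complex that binds the interferon-stimulated response element, rose by 1.34 ± 0.24 on the log2 scale (SE, limma voom, adjusted p = 0.0247), and Irf1 by 1.35 ± 0.32 (adjusted p = 0.0490). Nfkbiz, a nuclear regulator of NF-kB, fell by 0.82 ± 0.18 (adjusted p = 0.0383). In MRL/lpr+MSC against MRL/mpj, Irf7 alone passed, and rose by 1.03 ± 0.21 (adjusted p = 0.0403). Without any one MRL/mpj library, none of these 4 calls remained, and the adjusted p reached 0.112 for Irf9, 0.166 for Irf1, 0.140 for Nfkbiz and 0.157 for Irf7 in limma voom. The calls of Irf9, Irf1 and Nfkbiz were also lost without MRL/lpr library 1, that of Irf1 without library 2, and that of Irf7 without MRL/lpr+MSC library 2 or 3.

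Some genes induced by interferon were higher in both groups with the lpr mutation. In MRL/lpr, 8 of 20 tested genes rose, Isg15, Ifit1, Oas1a, Usp18, Ifi44, Rtp4, Gbp3 and B2m, and the median log2 fold change of the 20 was 1.75. Ifit1, which binds foreign RNA, rose by 2.05 ± 0.36 (SE, limma voom, adjusted p = 0.0218). B2m, the light chain of MHC class I, rose by 1.96 ± 0.30 (adjusted p = 0.0176), from 1394, 1322 and 1174 counts in MRL/mpj to 11435, 4880 and 4157 in MRL/lpr, with 1746, 2960 and 3364 in MRL/lpr+MSC. Of the same 20, 6 rose in MRL/lpr+MSC, Ifit1, Oas1a, Irf7, Ifi44, Gbp3 and B2m, with a median of 0.96, and 0 of the 20 passed with all 9 libraries in 1 fit. The median in MRL/lpr+MSC against MRL/lpr was -0.78, with 0 calls. These counts rest on single libraries, as do the calls over all genes. Over all genes, 569 of 16697 were called higher in MRL/lpr with all libraries and 1135 of 17184 without library 3. For MRL/lpr+MSC, 313 of 16196 were called higher with all libraries and 1091 of 16787 without library 1. In MRL/lpr, 18 of 20 passed without library 3, 3 without library 1, 7 without library 2 and 0 without any one of the control libraries, and in MRL/lpr+MSC 10 passed without library 1, 2 without library 2, 0 without library 3 and 0 without any one of the control libraries, by limma voom in each case.

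Markers of T cells, monocytes and plasma cells were highest in MRL/lpr library 1, as the summed ligands were, and their part in the levels of the ligands was not tested. Of 8 T cell markers, 7 were tested in MRL/lpr against MRL/mpj and 5 rose, Cd3e, Cd3d, Cd3g, Cd2 and Cd8a. Cd3g, a chain of the T cell receptor complex, was counted 0 times in the MRL/mpj libraries, 84, 43 and 19 times in MRL/lpr and 1, 4 and 14 times in MRL/lpr+MSC. It rose in MRL/lpr (limma voom, adjusted p = 0.00937), with no fold change given because the controls were at 0. The count of 5 was 7 without MRL/lpr library 3, 3 without library 1, and 0 without any one of the MRL/mpj libraries. The calls over all genes moved with the library left out as well. The 8 markers summed to 2.55, 1.85 and 2.12 CPM in the MRL/mpj libraries, 22.6, 14.4 and 6.81 in MRL/lpr and 2.34, 3.72 and 5.40 in MRL/lpr+MSC. In both lpr groups the libraries stood in the same order as for the summed ligands, and 4, 4 and 5 of the 8 markers were at 0 in the MRL/mpj libraries.

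The 5 monocyte markers summed to 38, 29 and 41 counts in MRL/mpj, 478, 227 and 59 in MRL/lpr and 15, 65 and 42 in MRL/lpr+MSC, with 0 of 4 tested markers passing in MRL/lpr against MRL/mpj by limma voom. Chil3, a marker of classical monocytes, was counted 20, 2 and 5 times in MRL/mpj, 2, 2 and 0 times in MRL/lpr and 1, 23 and 1 times in MRL/lpr+MSC, and led the list in MRL/mpj library 1 and MRL/lpr+MSC library 2. Ly6c2 or Ccr2 led it in the MRL/lpr libraries. The 3 plasma cell markers, led in MRL/lpr by Jchain, the joining chain of IgA and IgM, summed to 2.70, 1.81 and 2.07 CPM in the MRL/mpj libraries, 120, 42.8 and 21.5 in MRL/lpr and 5.71, 14.1 and 11.4 in MRL/lpr+MSC. Of these, Jchain rose by 3.74 ± 0.66 in MRL/lpr+MSC against MRL/mpj (SE, limma voom, adjusted p = 0.0294), and 0 of 3 passed in MRL/lpr. Cd79a, a chain of the B cell receptor complex, rose in MRL/lpr by 2.51 ± 0.58 (adjusted p = 0.0446). Of 5 natural killer cell markers, Nkg7, a protein of cytotoxic granules that T cells also make, was the one tested and rose by 4.10 ± 0.92 (adjusted p = 0.0424). These 3 calls were lost without any one MRL/mpj library, with an adjusted p in limma voom of up to 0.140 for Jchain, 0.172 for Cd79a and 0.145 for Nkg7. Those of Cd79a and Nkg7 were also lost without MRL/lpr library 1, and that of Jchain without MRL/lpr+MSC library 3.

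Markers of microglia, the resident macrophages of the brain, lay in a narrow range. The 7 microglial markers summed to 337, 310 and 311 CPM in the MRL/mpj libraries, 335, 261 and 263 in MRL/lpr and 276, 296 and 262 in MRL/lpr+MSC. Every MRL/lpr+MSC sum was below every MRL/mpj sum. By limma voom, 0 of 7 passed in any comparison. Without MRL/lpr library 1, 1 of the 7 was called lower in MRL/lpr against MRL/mpj. In MRL/lpr+MSC against MRL/mpj, 1 was called lower without MRL/lpr+MSC library 1. For P2ry12, a marker of resting microglia, the log2 fold change of -0.57 ± 0.09 in MRL/lpr (SE, adjusted p = 0.0151) was just under 1.5-fold. Of the endothelial markers, Cldn5, a protein of tight junctions, rose by 0.73 ± 0.09 in MRL/lpr (adjusted p = 0.00830) and by 0.87 ± 0.12 in MRL/lpr+MSC (adjusted p = 0.0118). The 6 markers of hippocampal neurons, all counted in every library and led by Camk2a, summed to 6600, 6622 and 6373 CPM in the MRL/mpj libraries, 4688, 5752 and 4021 in MRL/lpr and 5470, 5442 and 4707 in MRL/lpr+MSC. Every library of both lpr groups was below every MRL/mpj library, and the part of this in the ligand levels was not tested. Of the 6, Spink8 fell by 0.74 ± 0.12 in MRL/lpr (adjusted p = 0.0184). The call of Cldn5 in MRL/lpr was lost without MRL/mpj library 3 (limma voom, adjusted p = 0.0574). Its call in MRL/lpr+MSC, and that of Spink8, were lost without any one MRL/mpj library (adjusted p of up to 0.0711 and 0.0744), and that of Spink8 also without MRL/lpr library 1. The border macrophage, astrocyte, dendritic cell, fibroblast, neutrophil and erythroid lists had 0 calls in the 3 comparisons. Single libraries stood apart in some of them. The 5 neutrophil markers, led there by S100a9, summed to 24.8 CPM in MRL/lpr+MSC library 2, against 0.467 and 2.70 in libraries 1 and 3 of that group and at most 6.85 in the other groups. The 6 markers of border macrophages, led by Mrc1, summed to 7.79, 22.3 and 14.4 CPM in MRL/lpr+MSC and to 14.2 or more in the other groups, so library 1, the lowest for the summed ligands, was also the lowest here. Their part in the ligand levels was not tested. The 5 markers of choroid plexus, a tissue next to the hippocampus, summed to 164, 515 and 701 CPM in the MRL/mpj libraries, 1052, 9579 and 98.8 in MRL/lpr and 98.6, 4811 and 548 in MRL/lpr+MSC. They were highest in library 2 of both lpr groups, led by Ttr, whereas the summed ligands were highest in library 1 of MRL/lpr and library 3 of MRL/lpr+MSC. Cxcl13, by contrast with the sum, was also highest in library 2 of both lpr groups, at 12.7 and 0.651 CPM. The part of this tissue in the ligand levels was not tested.

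**Figure D5:**
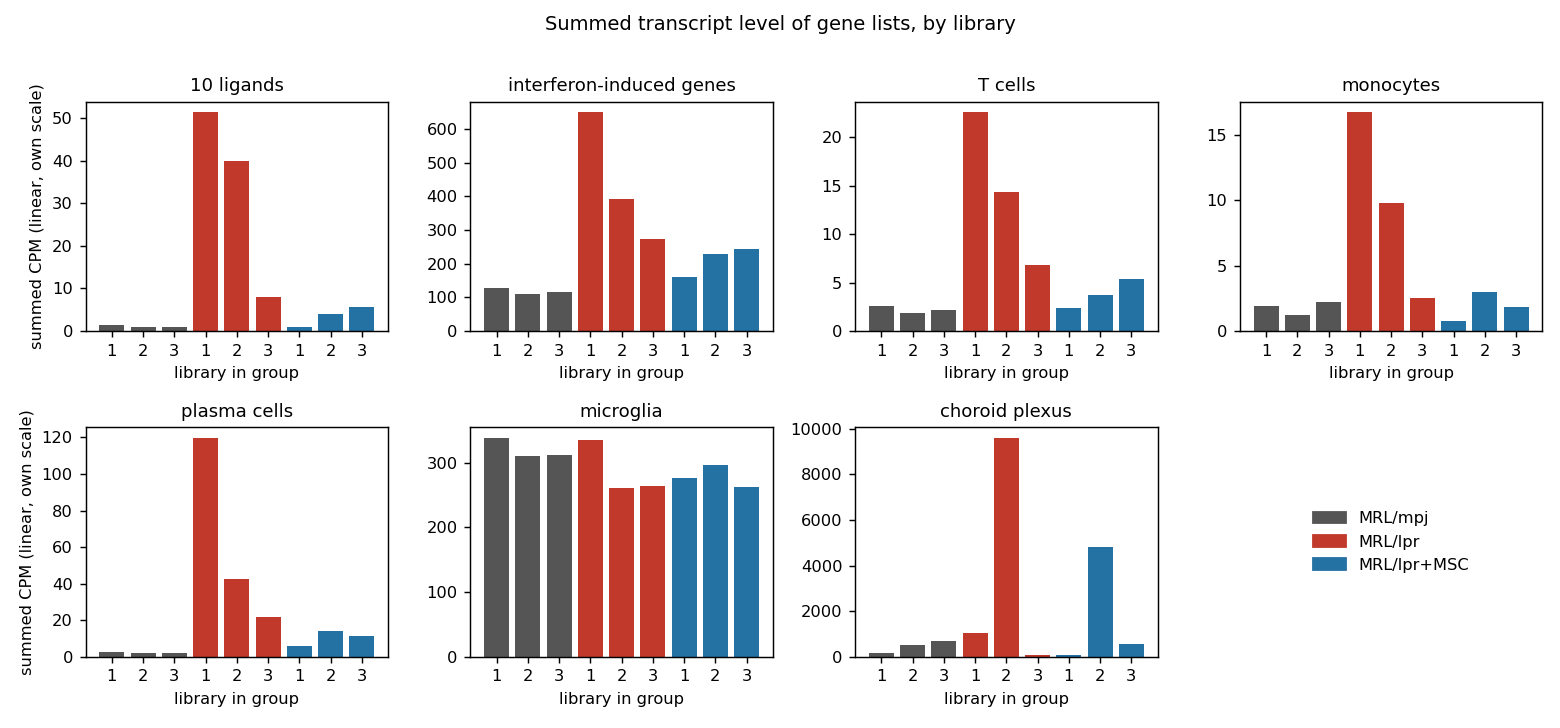
Summed CPM of the 10 ligands and of 6 gene lists in the 9 libraries, as bars on linear scales that start at 0 and differ between panels. The ligands, the interferon-induced genes and the T cell, monocyte and plasma cell markers are highest in library 1 of MRL/lpr, the microglial markers lie between 261 and 337 CPM throughout, and the choroid plexus markers peak in library 2 of MRL/lpr at 9579 CPM.

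The genes most like the ligands were sought over the 9 libraries among 17105 genes that passed the filter. For each, the correlation of log2(CPM + 0.5) with the mean z score of the 8 ligands that passed it was taken, as a description. The 9 libraries share 3 groups, so that any gene with the same difference between groups scores high, and 222 genes had a Pearson r over 0.9. The first 8 were Ptprc with r = 0.988, Cd3g with 0.986, Runx3 with 0.984, Igkv10-96 with 0.982, Igkv10-94 with 0.981, Cd4 with 0.980, Parp14 with 0.979 and AW112010 with 0.978. Ptprc encodes CD45, which all leukocytes carry, and was at 3.70, 4.26 and 3.92 CPM in the MRL/mpj libraries, 22.4, 17.5 and 7.82 in MRL/lpr and 3.32, 5.67 and 6.33 in MRL/lpr+MSC. Runx3 is a transcription factor of cytotoxic lymphocytes, Cd4 a coreceptor of T cells, and Igkv10-96 and Igkv10-94 are variable segments of the immunoglobulin kappa light chain. These segments belong to a family of near copies, and how reads were shared between them is uncertain. Igkv10-96 was at 0 in the MRL/mpj libraries and at 17.1, 9.22 and 1.14 CPM in MRL/lpr.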

How the data were processed

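Hippocampal RNA of 9 mice was sequenced as poly-A libraries, 3 per group, with groups taken from the labels. Per the methods, the authors used STAR on mm10 for alignment and HTSeq for counting by gene, while the labels name TopHat2 and GRCm38. They deposited raw counts of 47643 genes in 1 matrix and FPKM, which divide counts by gene length and library size, of 28008 genes in 1 table per library. Whether strand was used in counting is not given in the sources used here. Every FPKM table followed the counts of its own library over 13655 genes. The number of sample columns left unmatched was 0, and every matrix entry named a gene. Gene symbols came from GENCODE on GRCm38 and matched 47224 genes.

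Counts were scaled by TMM, trimming 30% of log ratios and 5% of levels, and CPM refer to the scaled library. A gene needed 15 counts in all and, in 3 or more libraries, the CPM that 10 counts give at the median library size. With 1 library left out, the number of libraries asked for was the size of the smaller group, so more genes were tested. Each comparison was fitted on its own 6 libraries with limma voom and robust moderation, and p-values were adjusted by Benjamini-Hochberg over every gene in the fit. Versions were R 4.3.3, limma 3.58.1 and statmod 1.5.0. The plan named the quasi-likelihood test of edgeR, and edgeR was not used, because the separator of the deposited matrix kept its values from being registered as counts. It was replaced by limma voom, which the plan also listed. The procedure was tested on simulated data, with the same spread set for every gene and changes planted in well-counted genes only. That test does not cover scarce ligands whose libraries differ widely within a group.

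The ligands and the gene lists were chosen with earlier results of these data known. The genes named are the 10 ligands, the genes of each list that were differentially expressed or else up to 4 with the highest mean CPM, and the 8 genes most like the ligands. Receptors, cytokines and markers given beyond that rule, with Fas, Art3, Xist and the Y-linked genes, were chosen after their values were seen. The alternatives tried were a joint fit of the 9 libraries, a block on replicate number, size factors by median of ratios, other filters and leaving out each library. After the data were seen, limma-trend, library quality weights and the ratios of summed counts and the bound of Ccl8 with 1 library left out were added. A protein comparison was planned and was not run here. Results for a few genes were left out.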

Additional observations from a re-analysis of the deposited data

How the results depend on the processing

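In MRL/lpr against MRL/mpj, the number of ligands that were differentially expressed, 1 in the test reported, was 2 with no filter on low counts, 2 with at least 1 CPM in 3 libraries and 2 with all 9 libraries fitted jointly. In these fits, in that order, 706 of 29355, 510 of 14961 and 569 of 17113 genes were called higher. The number of ligands was 5 by limma-trend and 5 with library quality weights, both chosen after seeing the data. Of 16697 genes, these called 895 and 1507 higher. With 1 library left out, the number of ligands ran from 0, without any MRL/mpj library, to 6, without MRL/lpr library 3. The number of genes, 967, was 1323 by limma-trend, 2065 with quality weights and 165 to 1695 with 1 library left out. In MRL/lpr+MSC against MRL/mpj, 1 ligand in place of 0 passed with no filter, and 0 to 1 with 1 library left out. Genes called higher were 345 of 28893 with no filter and 1091 of 16787 without MRL/lpr+MSC library 1, where the 1 ligand passed. The number of genes, 556, was 1177 with quality weights and 193 to 1514 with 1 library left out. In MRL/lpr+MSC against MRL/lpr, 0 genes and 0 ligands passed under each of 13 alternatives. There the log2 fold change of Ccl2, 0.09, turned to -0.74 without MRL/lpr library 3, -0.14 without MRL/lpr+MSC library 2 and -0.43 without MRL/lpr+MSC library 3, and it reached 0.81 without MRL/lpr+MSC library 1. Of 190 fits of single ligands under the alternatives, 165 kept direction and side of the threshold, 19 gained a call, 3 lost one and 3 reversed, and the causes were not tested.

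The labels do not say whether the replicate numbers pair the libraries, and so few libraries per group cannot decide it. The correlation of deviations between libraries of the same number was not over 0.1 for every pair in any comparison. It was -0.02, 0.13 and 0.05 in MRL/lpr against MRL/mpj, -0.06, 0.13 and 0.22 in MRL/lpr+MSC against MRL/mpj and -0.20, 0.25 and 0.40 in MRL/lpr+MSC against MRL/lpr. Between libraries of unlike number, it ran from -0.44 to 0.23 in MRL/lpr+MSC against MRL/lpr. With the replicate number as a block, 5 ligands were differentially expressed in MRL/lpr against MRL/mpj. In that fit 1127 genes were called, and 781 of 16697 were higher. The calls lost there included those of Nfkbiz (limma voom, adjusted p = 0.0530) and Rtp4 (0.0587). With the same block, 283 genes were called in MRL/lpr+MSC against MRL/mpj. The calls lost there included those of Ccr1 (limma voom, adjusted p = 0.0668) and Lta (0.114), and all 6 among the interferon-induced genes. The quasi-likelihood test of edgeR and the Wald test of DESeq2 were not run. In MRL/lpr against MRL/mpj, Ccl2, Ccl3, Ccl4 and Ccl7 did not pass the count filter, and the part of sequencing depth in this was not tested.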
